A study of Mus musculus with 54 samples.

Results

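NRF2, its inhibitor KEAP1 and 8 genes that NRF2 is classically known to activate were followed through 54 libraries of mouse kidney, heart and brain RNA. The genes were taken by symbol, and all 10 were found among the 54232 Ensembl gene identifiers of the count files. They are Nfe2l2 (ENSMUSG00000015839), which encodes NRF2, and Keap1 (ENSMUSG00000003308), then Gclc (ENSMUSG00000032350), Gclm (ENSMUSG00000028124), Slc7a11 (ENSMUSG00000027737), Txnrd1 (ENSMUSG00000020250), Srxn1 (ENSMUSG00000032802), Nqo1 (ENSMUSG00000003849), Hmox1 (ENSMUSG00000005413) and G6pdx (ENSMUSG00000031400). The glutathione S-transferases, which are NRF2 targets as well, are not among them. The question put to the data was whether a broad NRF2 program moves when aged or APPSWE mice receive Cmpd60, an inhibitor of the histone deacetylases HDAC1 and HDAC2.

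NRF2 is a transcription factor that is made all the time and, in an unstressed cell, destroyed almost as fast. KEAP1 holds it in the cytoplasm and passes it to a CUL3 ubiquitin ligase, and electrophiles or oxidants that modify cysteines of KEAP1 let NRF2 escape to the nucleus, where it pairs with small MAF proteins on antioxidant response elements. Because this switch works on the protein, the mRNA of Nfe2l2 and Keap1 need not move when the pathway turns on, and the mRNA of the target genes is the usual readout. The targets make glutathione (Gclc and Gclm, the catalytic and modifier subunits of its rate-limiting enzyme, and Slc7a11, which imports cystine), repair oxidized thiols (Txnrd1, thioredoxin reductase, and Srxn1, sulfiredoxin), reduce quinones (Nqo1), break down heme (Hmox1) and supply NADPH (G6pdx, glucose-6-phosphate dehydrogenase). In the kidney these enzymes are best known from the tubule, which handles a heavy load of filtered xenobiotics.

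The aged cohort was made of wild-type male BL6 mice of about 20 months. They received 22.5 mg/kg Cmpd60 or vehicle (DMSO, PEG400 and saline) by daily intraperitoneal injection for 14 days. It gave kidney from 6 Cmpd60-treated and 5 vehicle mice, brain from 6 and 6, and heart from 5 and 6. The second cohort, under the same dosing, gave brain from APPSWE-1349 mice (4 Cmpd60, 6 vehicle by their labels) and from littermates without the transgene (5 and 5), on a BL6 background. They were 6 to 7 months old per the study's methods, while their labels repeat the text for the aged mice. The study lists the APPSWE-1349 mice as male. The transgene codes for human amyloid precursor protein with the Swedish mutation, and the promoter that drives it is not given in the sources used here. For the kidney, titles and source names give the groups used here, and a separate treatment entry in the labels gives the reverse. If that entry were right, each kidney difference between Cmpd60 and vehicle below would change its sign. The values given for vehicle kidney, also those set against other tissues, would then be those of treated mice. The differences in response between kidney and other tissues would change as well. 1 library is labelled APPSWE vehicle while the heading of a study table gives Cmpd60, so it was left out of the main comparisons.

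Gene counts ranged from 23584609 to 57430113 per library, and from 15044 to 28017 genes were detected in each. The tissue labels held against marker genes, with summed cardiomyocyte markers at 39500 to 51700 CPM (counts scaled to library size) in heart and 1.32 to 12.2 CPM in kidney, and summed proximal tubule markers at 3880 to 9890 CPM in kidney and at most 3.74 CPM in heart. In the APPSWE cohort, 5 libraries (2 vehicle and 1 Cmpd60 of APPSWE, 1 of each of littermates) had 15044 to 16577 genes detected, against 18518 to 24821 in the other fitted libraries of that cohort, and results that rest on them are given with and without them. Each p-value comes from edgeR's quasi-likelihood test on the counts, adjusted over all genes tested in that comparison by the Benjamini-Hochberg method, and a gene is said to rise or fall only at an adjusted p below 0.05. The libraries of a group are taken as separate mice, so the p-values measure the spread between those mice. In whole tissue, fewer cells of a type and less RNA per cell cannot be told apart.

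The windows just upstream of the start sites were read for the core letters of the antioxidant response element, in the 250 bases before each start listed by RefSeq on build GRCm38.p6. Windows were held for 8 of the 10 genes, not for Gclc and Hmox1. The 2 spellings of the element searched on both strands were TGACNNNGC and TGAGNNNGC, which cannot overlap each other at the same position and strand. Either was present in 23% of 32851 mouse windows, so a match alone is not unusual. Of the 10 windows of these genes (Txnrd1 has 3) it was present in 6, 1 each of Nfe2l2, Srxn1, Slc7a11, Gclm, Txnrd1 and G6pdx, and not in those of Nqo1 and Keap1. Known enhancers that lie farther out are not in these windows. The windows of the genes that the results turn on are shown 5′ to 3′ with the matches in capitals, Nqo1 and G6pdx since their groups stood apart in the kidney, Nfe2l2 as the factor itself, and Srxn1 as the window with a pair of matches.
Nqo1, chr8:107403206-107403455, minus strand: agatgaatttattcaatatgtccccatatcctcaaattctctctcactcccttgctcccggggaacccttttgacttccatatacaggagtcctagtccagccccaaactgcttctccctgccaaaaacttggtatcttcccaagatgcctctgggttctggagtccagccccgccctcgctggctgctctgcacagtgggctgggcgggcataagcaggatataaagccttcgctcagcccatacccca
G6pdx, chrX:74428881-74429130, minus strand: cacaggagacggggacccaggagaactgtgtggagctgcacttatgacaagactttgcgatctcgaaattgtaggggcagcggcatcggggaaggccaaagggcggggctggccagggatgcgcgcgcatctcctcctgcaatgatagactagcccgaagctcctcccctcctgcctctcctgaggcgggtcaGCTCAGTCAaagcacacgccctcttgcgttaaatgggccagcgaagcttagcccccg
Nfe2l2, chr2:75704664-75704913, minus strand: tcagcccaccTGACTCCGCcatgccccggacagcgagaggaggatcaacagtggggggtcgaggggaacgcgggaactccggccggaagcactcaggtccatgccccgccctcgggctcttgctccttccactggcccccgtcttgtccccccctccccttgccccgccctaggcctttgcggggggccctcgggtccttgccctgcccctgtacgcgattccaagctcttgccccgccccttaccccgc
Srxn1, chr2:152105274-152105523, plus strand: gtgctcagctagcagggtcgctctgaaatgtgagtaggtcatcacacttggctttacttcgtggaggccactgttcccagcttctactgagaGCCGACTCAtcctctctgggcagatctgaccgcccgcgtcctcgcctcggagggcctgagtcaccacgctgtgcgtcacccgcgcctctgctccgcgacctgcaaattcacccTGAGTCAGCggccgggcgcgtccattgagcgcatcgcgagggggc

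The genes differ widely in where they are expressed, which sets what each tissue can show. To compare levels between genes, CPM of the 34 aged libraries normalized together were divided by the summed exon length of the gene in GENCODE vM1, giving CPM per kilobase, and the levels in this paragraph are on that scale. In vehicle kidney, Gclc stood highest at 105 ± 9.9 (SD, n = 5), followed by Gclm at 67.5 ± 5.85 and Txnrd1 at 61 ± 5.67, which overlapped. Nqo1, Nfe2l2 and Srxn1 followed at 41.9 ± 6.66, 32.7 ± 3.09 and 30.7 ± 4.32, the last pair also overlapping, and then Hmox1 at 13.9 ± 3.81, G6pdx at 12.8 ± 0.592 and Keap1 at 11.5 ± 0.977, which lay within each other's spread. In vehicle heart the order opened with Nqo1 at 50 ± 6.08 (SD, n = 6), then Txnrd1 at 29.8 ± 2.9 and Nfe2l2 at 22.8 ± 1.21. In vehicle brain it opened with Srxn1 at 31.9 ± 1.63 (SD, n = 6), while Nqo1 stood at 2.9 ± 0.533 and Hmox1 at 1.74 ± 0.165. Slc7a11 was a brain gene in these data, with 3.5 ± 0.223 in brain against 0.0253 ± 0.0168 in kidney and 0.0317 ± 0.0149 in heart.

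Between vehicle tissues, kidney and brain differed at an adjusted p below 0.05 in 8 of the 10 genes, where 72.5% of the 27105 genes tested did. The values between tissues come from the fit of all 34 aged libraries. It treats every library as its own mouse, although tissues may share a mouse. Nqo1 was higher in kidney by 3.85 ± 0.19 (SE) on the log2 scale, Nfe2l2 by 3.02 ± 0.08, Hmox1 by 2.99 ± 0.26, Gclc by 2.72 ± 0.13, Gclm by 2.43 ± 0.17 and Txnrd1 by 1.85 ± 0.11. Keap1 went the other way, with a log2 difference of -0.41 ± 0.07, as did Slc7a11 with -7.12 ± 0.35. Srxn1 and G6pdx did not pass, with log2 differences of -0.06 (95% interval -0.29 to 0.18) and 0.21 (-0.01 to 0.42). Kidney and heart differed in 7 genes against 56.7% of all genes, with the exceptions of Nqo1, Hmox1 and Slc7a11, and brain and heart in 9 against 72.1%, with the exception of Gclm. Nqo1 showed no detectable difference between kidney and heart at this spread, with a log2 difference of -0.26 (-0.6 to 0.09), while Gclc was 3.8 ± 0.13 log2 higher in kidney than in heart.

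In the aged kidney, Nqo1 and G6pdx separated the Cmpd60-treated from the vehicle mice completely and no other target did. Levels from here on are CPM, normalized within the tissue by the TMM method. Nqo1 was at 204, 182, 118, 98.7, 85.9 and 107 CPM in the 6 Cmpd60-treated kidneys and at 67.7, 58.2, 80.5, 79.3 and 58.2 CPM in the 5 vehicle kidneys. Each treated mouse lay above each vehicle mouse, and replicates 50 and 51 were well above the other treated mice. The log2 fold change was 0.95 ± 0.21 (SE), a fold of 1.93, with a 95% interval from 0.5 to 1.39 and an adjusted p = 0.0831 by edgeR's quasi-likelihood test, which missed the threshold.

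G6pdx was at 64.7, 68.4, 58.5, 45.4, 55.2 and 53.8 CPM in the Cmpd60-treated kidneys and at 44.1, 39.2, 41.5, 43.2 and 41 CPM in the vehicle kidneys. Again the groups did not overlap, though replicate 53 came close to the highest vehicle mouse, and replicates 50 and 51 were again the highest. Its log2 fold change was 0.46 ± 0.1 (interval 0.25 to 0.68), a fold of 1.38, with adjusted p = 0.0755 (edgeR). Both genes missed the threshold here and passed it under DESeq2 (adjusted p = 0.00104 for Nqo1 and 0.00171 for G6pdx) and in a fit of all 34 aged libraries (0.00163 and 0.0138). Over the 8 other settings of the analysis Nqo1 passed in 3 and G6pdx in 2, and limma-voom, the kind of test the study used, gave adjusted p = 0.0864 and 0.0797. With 1 library left out, Nqo1 passed in 1 and G6pdx in 2 of the 11 fits, and the adjusted p reached 0.221 and 0.215 without vehicle replicate 46.

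**Figure D1:**
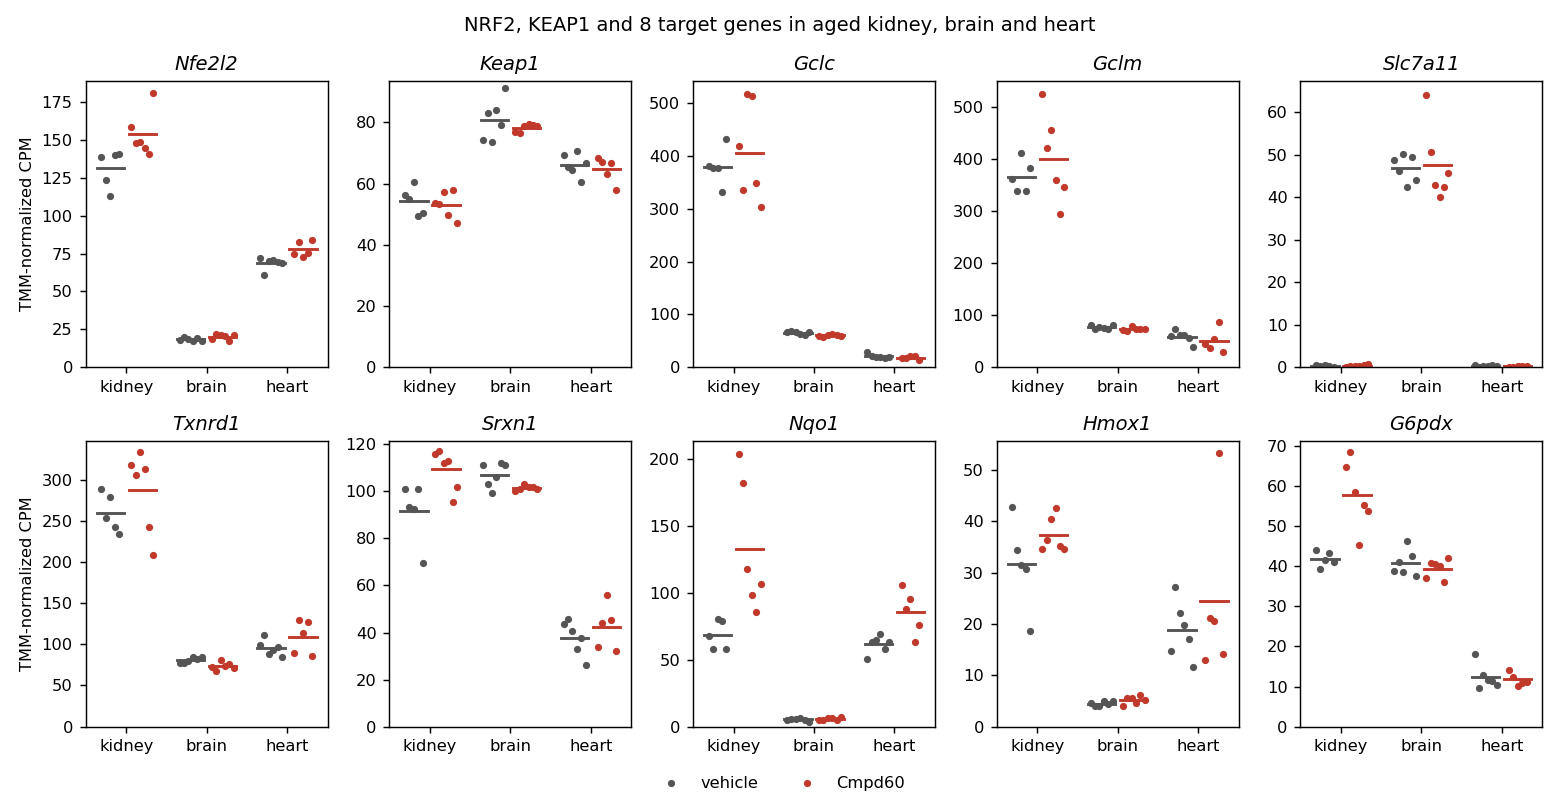
TMM-normalized CPM of the 10 genes in each aged library, by tissue, with vehicle in grey and Cmpd60 in red, 1 point per mouse and a bar at the group mean. Each panel has its own linear axis from 0. In kidney the red points of Nqo1 (85.9 to 204) and G6pdx (45.4 to 68.4) lie above all grey points (58.2 to 80.5 and 39.2 to 44.1), while those of Gclc and Gclm spread across them.

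The factor itself differed less. Nfe2l2 ranged from 141 to 181 CPM in the 6 Cmpd60-treated kidneys and from 113 to 141 CPM in the 5 vehicle kidneys. The groups touched without overlapping, and the log2 fold change was 0.23 ± 0.09 (interval 0.03 to 0.42, adjusted p = 0.367, edgeR). Keap1 ranged from 47.2 to 57.9 CPM against 49.3 to 60.4 CPM, with a log2 fold change of -0.03 ± 0.08 (interval -0.2 to 0.15).

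The glutathione genes and the thiol repair genes, which are the larger share of the classical list, showed no rise that passed the test. In this they were like Nqo1 and G6pdx, which missed the threshold as well. Gclc was at 304 to 517 CPM (median 384) in Cmpd60-treated kidney and at 331 to 432 CPM in vehicle kidney, and Gclm at 294 to 525 CPM (median 391) against 338 to 412 CPM. For both, the treated mice lay on either side of the vehicle mice, and the log2 fold changes were 0.1 (interval -0.21 to 0.4) and 0.13 (interval -0.16 to 0.41). Txnrd1 was at 208 to 334 CPM against 234 to 289 CPM, with 0.15 (interval -0.12 to 0.41). Srxn1, at 116, 117, 112, 113, 95.6 and 102 CPM against 101, 93.2, 92.3, 101 and 69.7 CPM, had 1 treated mouse inside the vehicle range and a low vehicle replicate 49, with a log2 fold change of 0.26 (interval 0.04 to 0.47, adjusted p = 0.356, edgeR). Hmox1 was at 34.7 to 42.6 CPM against 18.7 to 42.8 CPM, with 0.24 (interval -0.09 to 0.57). Slc7a11 had 2 to 23 counts per kidney library, too few to show a change, and its interval ran from -1.19 to 1.67.

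Counted together, 9 of the 10 genes had a positive log2 fold change in kidney, as 50% of all 20698 genes tested did, with a median of 0.23 beside 0 for all genes. None passed the adjusted threshold, which 0.3% of all genes did. At an unadjusted p below 0.05, 4 of the 10 were higher (Nqo1, G6pdx, Nfe2l2 and Srxn1), against 5.71% of all genes, and the groups did not overlap in 3 of the 10, against 2.3% of all genes. The 10 genes were chosen with earlier results of these data known, so these shares describe them and are no independent test. The estimated sizes were unequal. The interval of Nqo1, from 0.5 up, lay above the upper ends of those of Gclc, Gclm and Txnrd1, which were 0.4, 0.41 and 0.41, although the genes were measured in the same mice and their difference was not tested.

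Other genes linked to NRF2 were read from 7 lists of 71 genes, chosen by function and with earlier results of these data known. The shares of the lists set beside those of all genes are thus a description and no independent test. In kidney, 2 of the 71 genes rose. Cbr1, a carbonyl reductase that acts on quinones and other carbonyls, was at 100 to 180 CPM in the 6 Cmpd60-treated mice and at 68.5, 56.6, 50.7, 78.3 and 51.5 CPM in the 5 vehicle mice, with a log2 fold change of 1.16 ± 0.17 (adjusted p = 0.00679, edgeR). Abcc4, an exporter of organic anions and glutathione conjugates, was at 124 to 169 CPM against 94.9, 99, 103, 110 and 91.2 CPM, with 0.48 ± 0.09 (adjusted p = 0.0384, edgeR). For both, no treated mouse overlapped a vehicle mouse. Cbr1 belongs to the list of detoxication with quinone and heme handling, the functions of Nqo1 and Hmox1, in which the median log2 fold change was 0.41 and 8 of 16 genes were higher at an unadjusted p below 0.05, with 1 lower, beside 5.71% and 5.63% of all genes. Besides Cbr1 the groups did not overlap for Cbr3, a carbonyl reductase close to Cbr1, at 8.14 to 12.8 CPM against 1.99 to 6.69 CPM (1.13 ± 0.26 log2, adjusted p = 0.091, edgeR), and for Slc48a1, a heme transporter, at 181 to 286 CPM against 147 to 166 CPM (0.52 ± 0.12 log2, adjusted p = 0.0984, edgeR). The other members of those 8 were Ephx1, which hydrolyses epoxides, the ferritin chains Ftl1 and Fth1, Akr1b8 and Osgin1, and all of these beyond Cbr1 are named here after their values were seen.

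G6pdx is the entry enzyme of the pentose phosphate pathway, and the 3 genes of NADPH supply that were higher in kidney at an unadjusted p below 0.05 are further enzymes of that pathway, named after their values were seen. Pgls had a log2 fold change of 0.42 (adjusted p = 0.149, edgeR), Pgd 0.27 (0.367) and Tkt 0.21 (0.34), and Tkt was at 183 to 221 CPM against 171 to 182 CPM with no overlap. The other 4 of the 7 genes, among them the malic enzyme Me1 at -0.33, did not reach that level, and the median of the list was 0.18. Of the 5 efflux genes, Abcc4 and Abcc1 were higher at that level. Glutathione supply had 2 of 7 higher and 1 lower with a median of 0.03, and the 15 partners and regulators of NRF2 had none on either side with a median of -0.04. The thioredoxin and peroxiredoxin list had 2 of 13 higher and 2 lower, and the antioxidant enzymes kept for comparison 1 higher of the 7 tested.

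**Figure D2:**
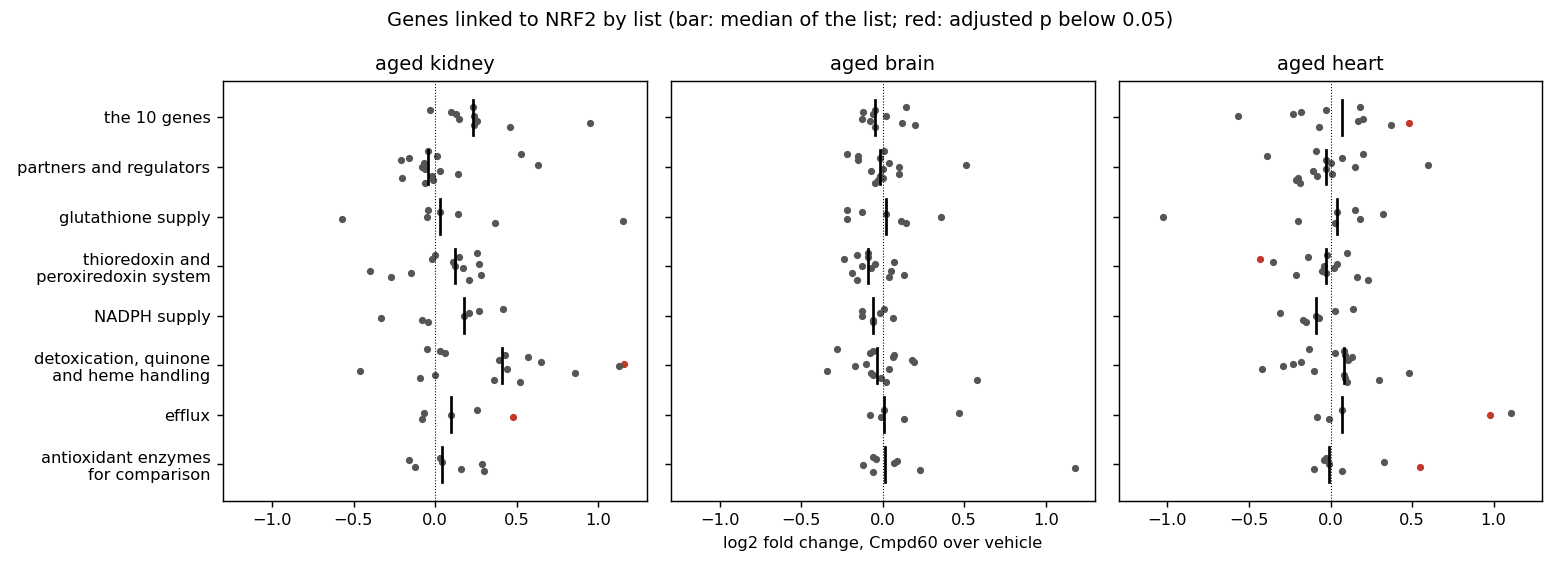
Log2 fold change of Cmpd60 over vehicle for each gene of the lists linked to NRF2, in aged kidney, brain and heart, with 1 point per gene and a black bar at the median of the list. Red points passed the adjusted threshold. In kidney the detoxication list sits to the right with a median of 0.41, and in brain the medians lie between -0.09 and 0.02.

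Markers of kidney injury and of the proximal tubule were read in the same kidneys, and none passed the adjusted threshold. The summed level of the 3 kidney injury genes (Havcr1, Lcn2 and Krt20) was 176, 197, 60.4, 27.2, 267 and 912 CPM in the Cmpd60-treated mice, in the order of the Nqo1 values above, and 106, 41.4, 30.6, 176 and 38.5 CPM in the vehicle mice. All 3 had positive log2 fold changes, from 1.28 to 2.21. The 6 proximal tubule markers summed to 7620, 7120, 9890, 7850, 6580 and 3880 CPM in treated mice and 7480 to 9190 CPM in vehicle mice, and 4 of the 6 had negative log2 fold changes. Replicate 55 stood out in both lists. Without it, the log2 fold change of Nqo1 was 1 and that of G6pdx 0.49. The part of these markers in the values of Nqo1 and G6pdx was not tested.

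In the aged heart, Nqo1 was the only one of the 10 genes to rise. Nqo1 was at 106, 87.9, 95.7, 63.7 and 75.9 CPM in the 5 Cmpd60-treated hearts and at 50.8 to 69 CPM with a median of 63.5 in the 6 vehicle hearts. Replicate 71 was inside the vehicle range and the other treated mice were above it. The log2 fold change was 0.48 ± 0.11 (interval 0.24 to 0.71), a fold of 1.39, with adjusted p = 0.0483 (edgeR). No other member passed in any of the Cmpd60 comparisons, and 1.18% of the 19452 genes tested in heart passed. The call was kept in 1 of the 11 fits that left out a library, the one without replicate 71, and the adjusted p in the others reached 0.116, while the unadjusted p stayed below 0.05 in all 11.

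Nfe2l2 was at 74.5, 82.7, 73.1, 75.5 and 83.8 CPM in Cmpd60-treated hearts and at 61.1 to 72.2 CPM with a median of 70.1 in vehicle hearts. As in the kidney the groups did not overlap and the shift was small, with a log2 fold change of 0.18 ± 0.06 (interval 0.04 to 0.31, adjusted p = 0.206, edgeR). It was the only one of the 10 without overlap in heart, against 2.69% of all genes.

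The remaining heart values went in both directions. Txnrd1 was at 85.5 to 130 CPM against 85 to 111 CPM with a log2 fold change of 0.2 (interval -0.03 to 0.42), and Srxn1 at 32.2 to 56 CPM against 26.3 to 45.8 CPM with 0.17 (interval -0.15 to 0.48). Gclc was at 14.1 to 21.5 CPM against 16.8 to 28.7 CPM with -0.18 (interval -0.47 to 0.11), and Gclm at 43.6, 36.2, 54.2, 87.3 and 29.6 CPM against 39.1 to 73.9 CPM with -0.23 (interval -0.68 to 0.23). G6pdx, which stood apart in the kidney, was at 10.2 to 14.2 CPM against 9.68 to 18.2 CPM with -0.07 (interval -0.38 to 0.23). Hmox1 was at 13, 21.1, 20.6, 53.3 and 14.1 CPM against 11.6 to 27.2 CPM, and its log2 fold change of 0.37 (interval -0.27 to 1.02) became -0.13 without replicate 71, the library that was also highest in Gclm and lowest in Nqo1. Keap1 had -0.03 (interval -0.17 to 0.1), and Slc7a11 0 to 13 counts per library. Together 5 genes had positive and 5 negative log2 fold changes, where 49.6% of all genes were positive, with a median of 0.07 beside 0 for all genes, and 2 of the 10 were higher at an unadjusted p below 0.05, against 7.28% of all genes.

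**Figure D3:**
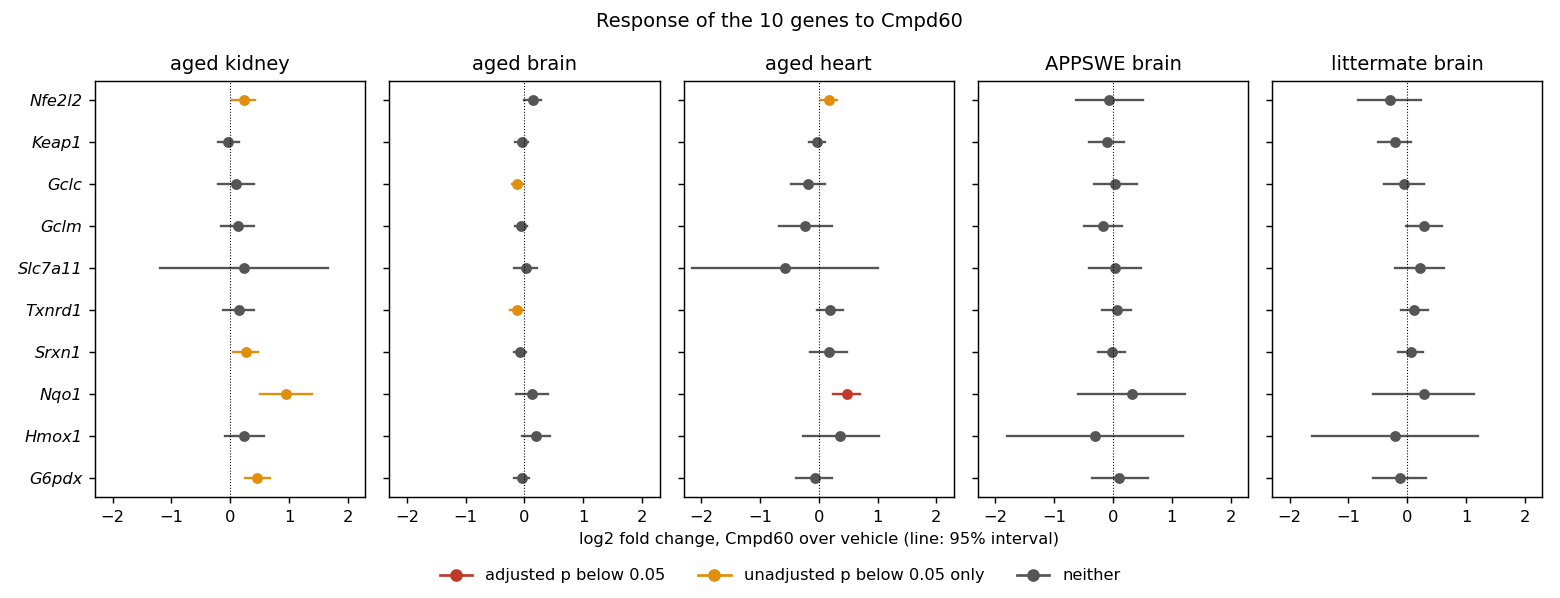
Log2 fold change of Cmpd60 over vehicle for the 10 genes in each of the 5 comparisons, with the 95% interval as a line. Red marks an adjusted p below 0.05, orange an unadjusted p below 0.05 only, and grey neither. Nqo1 in heart (0.48) is the only red point, and the intervals in the APPSWE cohort are wider than those in aged brain.

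Of the 71 linked genes, 3 passed in heart, where 1.18% of all genes did, as 2 had in kidney, where 0.3% did. Abcc3, a further exporter of conjugates, was at 3.2, 3.69, 2.81, 1.86 and 3.32 CPM in Cmpd60-treated hearts and at 1.01 to 1.71 CPM in vehicle hearts, a rise of 0.98 ± 0.21 log2 (adjusted p = 0.0394, edgeR) with no overlap. Gpx1, a glutathione peroxidase kept for comparison, was at 76.3, 98.1, 60.1, 76.8 and 97.1 CPM against 46.9 to 68.5 CPM and rose by 0.55 ± 0.13 log2 (adjusted p = 0.0455, edgeR), with 1 treated mouse inside the vehicle range. Txnrd3, a thioredoxin reductase best known from testis, was at 15.4, 12.4, 16.8, 17 and 14.3 CPM against 19 to 21.9 CPM and fell, with a log2 fold change of -0.43 ± 0.09 (adjusted p = 0.0332, edgeR) and no overlap. Cbr1, which rose in the kidney, was at 18.1 to 24.9 CPM in treated hearts against 22.3 to 29.5 CPM, with a log2 fold change of -0.23 (adjusted p = 0.282, edgeR). In the test of the difference itself, the Cbr1 response was larger in kidney than in heart by 1.37 ± 0.17 log2 (adjusted p = 7.11e-05, edgeR), and that of Gpx1 differed by -0.68 ± 0.15 (adjusted p = 0.0277, edgeR). The differences of Abcc4 (0.54, adjusted p = 0.0595), Abcc3 (-0.9, 0.142) and Txnrd3 (0.39, 0.233) did not pass.

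**Figure D4:**
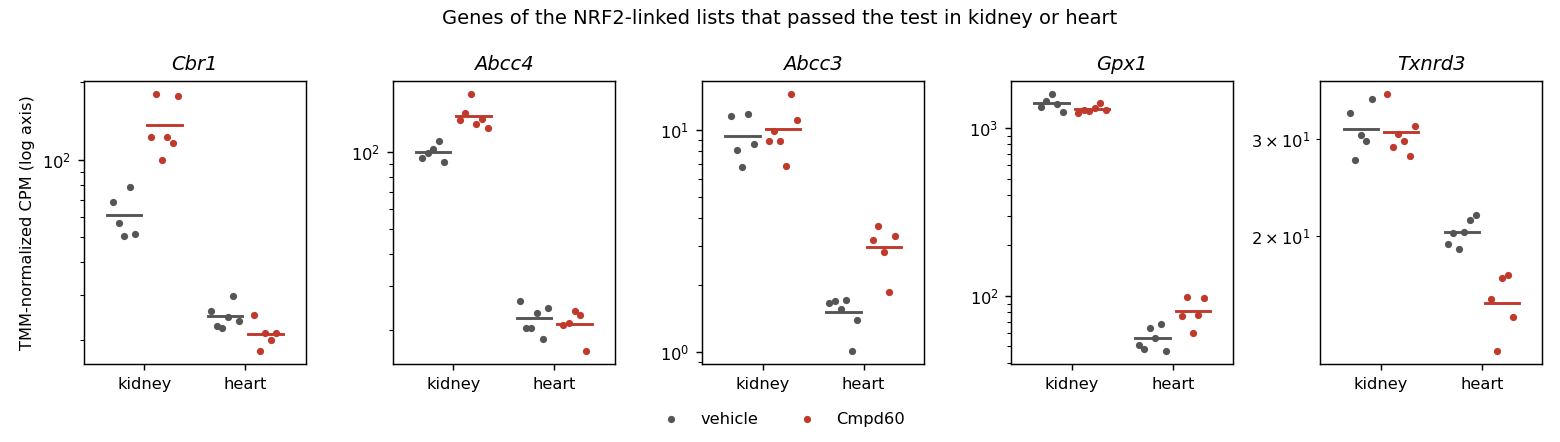
TMM-normalized CPM on a log axis of the 5 genes of the linked lists that passed the test in kidney or heart, 1 point per mouse with a bar at the group mean, vehicle in grey and Cmpd60 in red. Cbr1 and Abcc4 separate in kidney and overlap in heart, and Abcc3 and Txnrd3 do the reverse.

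Macrophage markers were higher in the same hearts. All 8 had positive log2 fold changes, from 0.11 to 0.45, 4 of them at an unadjusted p below 0.05 and none after adjustment, and their sum was 257 to 329 CPM in Cmpd60-treated and 191 to 299 CPM in vehicle hearts. The endothelial markers Pecam1, Cdh5, Kdr and Tek were positive as well, from 0.09 to 0.19, and none passed after adjustment. Their sum was 796 to 1070 CPM in treated and 753 to 862 CPM in vehicle hearts. The 5 cardiomyocyte markers had a median of -0.04. Lcn2, an injury and acute phase gene, rose in heart from 3.23 to 5.4 CPM in vehicle mice to 6.05 to 38.5 CPM in treated mice, by 2.31 log2 (adjusted p = 0.0122, edgeR). The part of these markers in the value of Nqo1 was not tested.

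In the aged brain none of the 10 genes moved past the threshold, in a comparison where 0.0205% of the 24438 genes tested did. The spread between mice was lowest in brain, with a common biological coefficient of variation of 0.114 against 0.255 in kidney and 0.21 in heart. Depth differed with treatment there, at 29646412 to 57430113 gene counts in Cmpd60-treated brains against 26402957 to 32344641 in vehicle brains. Genes detected were 25850 to 28017 against 24939 to 25861, and signs that turned with genes detected as a covariate are given below. Nqo1 was at 4.99 to 7.31 CPM with a median of 5.67 in Cmpd60-treated brains and at 3.71 to 6.69 CPM with a median of 5.5 in vehicle brains, and its log2 fold change of 0.12 had an interval from -0.15 to 0.4. G6pdx was at 36.2 to 42.1 CPM against 37.6 to 46.2 CPM, with -0.05 (interval -0.17 to 0.08). The interval of each ended below its value in kidney.

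Txnrd1 and Gclc were slightly lower in the treated brains at an unadjusted p below 0.05. Txnrd1 was at 68 to 81.1 CPM (median 73) against 76.9 to 84.6 CPM (median 81.2), with a log2 fold change of -0.13 ± 0.05 (adjusted p = 0.259, edgeR). Gclc was at 57.3 to 63 CPM (median 59.7) against 61.5 to 67.5 CPM (median 65.6), with -0.12 ± 0.04 (adjusted p = 0.264, edgeR). In both the groups overlapped, and 2 of 10 lower at that level stands beside 6.47% of all genes. Nfe2l2 was at 17.1 to 22.2 CPM against 17.3 to 19.8 CPM with 0.14 (interval 0 to 0.28), and Hmox1 at 4 to 6.11 CPM against 4.03 to 4.97 CPM with 0.2 (interval -0.04 to 0.44). Keap1, Gclm, Srxn1 and Slc7a11 had log2 fold changes between -0.08 and 0.02. Of the 10 genes 4 were positive, where 51.8% of all genes were, no gene separated the groups, where 0.925% of all genes did, and the median was -0.05, beside 0.01 for all genes, and no gene of the 7 linked lists passed. In the same brains all 4 neuron markers were higher at an unadjusted p below 0.05, with log2 fold changes from 0.13 to 0.28, and summed to 4770 to 6040 CPM in treated and 4380 to 5070 CPM in vehicle mice. The endothelial markers Pecam1, Cdh5, Kdr and Tek were positive there too, from 0.13 to 0.31, and none passed after adjustment. The part of the neuron and endothelial markers in the values of the 10 genes was not tested.

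The difference between tissues was then tested itself, in 1 fit of the 34 aged libraries. Tissues of 1 mouse could not be matched to each other from the labels, and that fit treats every library as its own mouse. The Nqo1 response was larger in kidney than in brain by 0.79 ± 0.25 log2 (adjusted p = 0.242, edgeR) and than in heart by 0.46 ± 0.24 (interval -0.03 to 0.94, adjusted p = 0.464). The G6pdx response was larger in kidney than in brain by 0.49 ± 0.15 (adjusted p = 0.212, edgeR) and than in heart by 0.52 ± 0.15 (adjusted p = 0.139). Txnrd1 differed between brain and heart by -0.32 ± 0.15 (adjusted p = 0.521, edgeR). None of the 10 passed the adjusted threshold in any of these differences, where 0.0885%, 0.35% and 0.0517% of the 27105 genes did for kidney against brain, kidney against heart and brain against heart. The small shift of Nfe2l2 differed between tissues by at most 0.06 log2, with intervals within -0.23 to 0.26.

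In the brains of the APPSWE cohort no response of the 10 genes was detectable, at a spread several times that of aged brain. The common biological coefficient of variation was 0.729, taken with the libraries of few detected genes included, and it was not computed without them. For Cmpd60, 0 of 23194 genes passed the adjusted threshold in either genotype (0%). At an unadjusted p below 0.05 by edgeR there were 2195 genes (9.46%) in APPSWE mice and 852 (3.67%) in littermates. DESeq2 called 22 and 4. None of the 10 genes was among those at an unadjusted p below 0.05 in either genotype.

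Nqo1 was at 7.1, 7.57, 6.25 and 6.09 CPM in Cmpd60-treated APPSWE brains and at 4.65, 5.37, 6.92, 7.26 and 2.96 CPM in vehicle APPSWE brains, with a log2 fold change of 0.32 (interval -0.6 to 1.23). The vehicle values of 4.65 and 2.96 CPM came from libraries with few genes detected, and with the 5 such libraries of the cohort left out the log2 fold change was 0.03. In littermates Nqo1 was at 3.45, 8.75, 7.55, 7.5 and 6.62 CPM against 5.77, 5.65, 6.11, 8.14 and 2.25 CPM, with 0.28 (interval -0.58 to 1.14). There too the lowest value of each group came from a library with few genes detected.

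Libraries with few genes detected also gave the extreme values of other members. G6pdx was at 16.7 CPM in 1 of them and at 34.1 to 54.1 CPM in the other vehicle APPSWE brains, and Gclc at 33.6 CPM in the same library against 60.7 to 94.7 CPM. Nfe2l2 was at 7.09 CPM in 1 treated littermate against 17.2 to 23.3 CPM in the other treated littermates, and Keap1 at 143 CPM in 1 vehicle littermate against 73 to 88.6 CPM in the other vehicle littermates. The Cmpd60 log2 fold changes of all 10 genes lay between -0.31 and 0.32 in APPSWE mice and between -0.3 and 0.29 in littermates, with a median of 0 in both. With the 5 libraries left out, Hmox1 had -0.75 (adjusted p = 0.392, edgeR) and Nfe2l2 -0.37 (adjusted p = 0.448, edgeR) in APPSWE mice, and these were then the 2 of the 10 genes at an unadjusted p below 0.05, where 10.8% of all genes were.

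**Figure D5:**
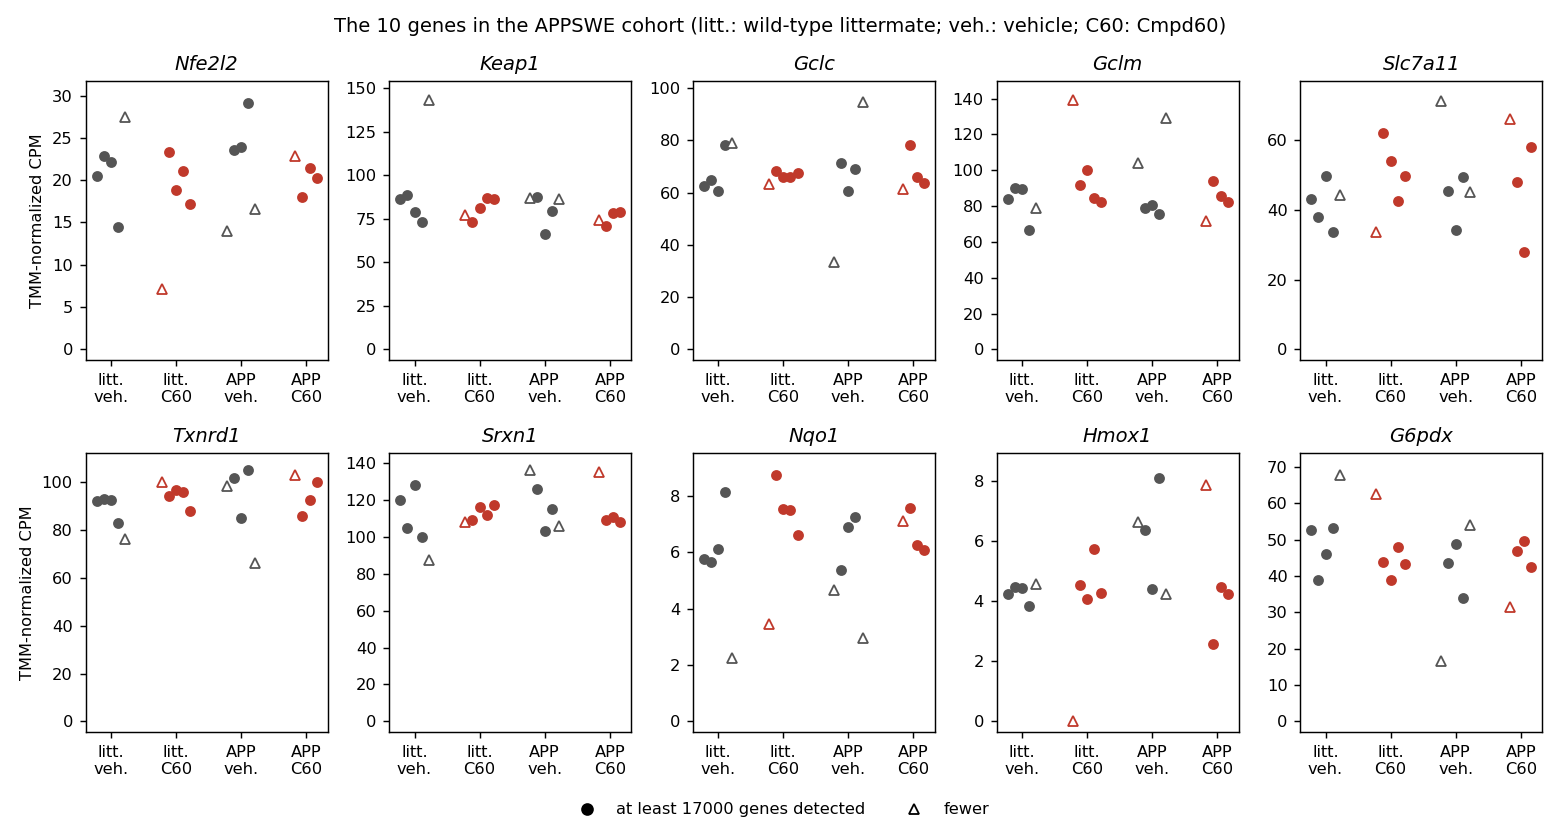
TMM-normalized CPM of the 10 genes in the 19 fitted brain libraries of the APPSWE cohort, vehicle in grey and Cmpd60 in red, with open triangles for the 5 libraries with fewer than 17000 genes detected. The triangles hold extreme values such as Keap1 at 143 CPM and Hmox1 at 0 CPM, and the filled points of the 4 groups overlap for Nqo1 and G6pdx.

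No difference by genotype passed the adjusted threshold either. Between vehicle APPSWE and vehicle littermate brains, no log2 difference of the 10 reached an unadjusted p of 0.05, where 8.67% of all genes did and 0.00862% passed the adjusted threshold. G6pdx came nearest, with -0.39 (interval -0.84 to 0.06, adjusted p = 0.649, edgeR), and with the 5 libraries of few detected genes left out it was at -0.18 ± 0.13 (adjusted p = 0.635). In that setting Hmox1 (0.56, adjusted p = 0.49, edgeR) and Nfe2l2 (0.35, adjusted p = 0.471, edgeR) were higher in APPSWE mice at an unadjusted p below 0.05, where 10.1% of all genes were below it, and neither passed after adjustment. In the test of whether the response to Cmpd60 depended on genotype, Gclm alone had an unadjusted p below 0.05, where 5.09% of all genes had one. It was at 71.9, 93.8, 85.5 and 82.4 CPM in treated and 104, 78.9, 80.5, 75.6 and 129 CPM in vehicle APPSWE brains, at 66.6 to 89.8 CPM in the 5 vehicle littermates, and in treated littermates at 82.2 to 100 CPM in 4 mice and above all other values of the cohort in 1. The difference of -0.45 ± 0.22 log2 (adjusted p = 0.974, edgeR) became 0.03 with the 5 libraries of few detected genes left out. The vehicle values of 104 and 129 CPM and the highest treated littermate came from those libraries. Without those libraries, 1 of the 10 genes other than Gclm had an unadjusted p below 0.05 for this dependence, where 5.37% of all genes had one.

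To see what varies with Nqo1 from mouse to mouse, its log2 CPM was compared with those of 15734 other genes over the 34 aged libraries. The mean of each tissue and treatment had first been taken away. The 10 genes, the genes of the linked lists and the cell type and injury markers were left out of this ranking. The 3 most alike were Tmem205 with Pearson r = 0.84, Esd with r = 0.78 and Lyrm5 with r = 0.76. All 3 were picked as the highest of the genes ranked, and the linked genes could not appear among them. Esd encodes S-formylglutathione hydrolase. Their r was 0.91, 0.82 and 0.94 within the kidney libraries, 0.65, 0.68 and 0.43 within brain, and 0.85, 0.83 and 0.72 within heart. None of the 3 passed the test for Cmpd60 in any aged tissue, the largest log2 fold change being 0.27 ± 0.16 for Tmem205 in kidney. Among the 10 genes themselves the highest r with Nqo1 was that of G6pdx at 0.37, and those of Nfe2l2, Keap1, Gclc, Gclm, Txnrd1, Srxn1 and Hmox1 lay between -0.15 and 0.18, with Slc7a11 at -0.47. The values share their library, its depth and its dissection.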

How the data were processed

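Poly-A RNA was sequenced from 54 mouse libraries. The authors trimmed reads with Trimmomatic 0.32, aligned them with HISAT2 2.1.0 and deposited raw counts per Ensembl gene made with HTSeq 0.11.0 (stranded), the genome build not being given in the sources used here. Summary lines that name no gene, 15.4% to 22.2% of a library, were left out.

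The counts were tested with edgeR 4.0.16 (glmQLFit and glmQLFTest, TMM) in R 4.3.3, on genes whose count exceeded 2 in 3 or more of the libraries fitted, after a test on simulated data. The APPSWE cohort was fitted as 19 libraries, and tissue differences as 34. The alternatives were DESeq2 1.42.0, limma-voom 3.58.1 (the study's test), other size factors and filters, libraries left out, a covariate for genes detected, thinned counts, and the library of conflicting label in either group. No 2 libraries held the same counts. Members and lists were chosen with earlier results of these data known. The named genes are the 10 members, each list gene with an adjusted p below 0.05 for Cmpd60 (at most 4 per comparison), and the 3 genes outside all lists, of at least 1 CPM, with the highest Pearson r with Nqo1. Adgre1 and Akr1a1 were matched by an older symbol, and Hbb-bs and Hbb-bt were not matched.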

Additional observations from a re-analysis of the deposited data

Results flagged for a closer look

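Of 100 groups of values tested (10 genes in 10 groups), 6 held a sample set apart from the rest by Dixon's criterion, and chance alone flags about 1 in 20 groups. In vehicle kidney, Srxn1 was at 69.7 CPM in replicate 49, with the next value at 92.3 CPM. In Cmpd60-treated heart, Hmox1 was at 53.3 CPM in replicate 71, with the next value at 21.1 CPM. In vehicle heart, Nfe2l2 was at 61.1 CPM in replicate 63, with the next at 69.1 CPM. In Cmpd60-treated APPSWE brain, Srxn1 was at 135 CPM in replicate 141, with the next at 111 CPM. In littermate brain, Keap1 was at 143 CPM in 1 vehicle mouse, with the next at 88.6 CPM, and Hmox1 at 0 CPM in Cmpd60 replicate 152, with the next at 4.08 CPM. The last 3 libraries are among the 5 with fewer than 17000 genes detected.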

How the results depend on the processing

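Counts of genes past the adjusted threshold depended on the test, and so did the calls of members. In kidney, where edgeR called 62 genes, DESeq2 called 429, no filter 94, the covariate for genes detected 38 and the joint fit of 34 libraries 552, and 20 (without replicate 46) to 131 (without replicate 52) were called with 1 library left out. Of the kidney members, 0 in the main comparison, DESeq2 and the joint fit called 2 (Nqo1 and G6pdx), no filter 1 (Nqo1), and 0 to 1 were called with 1 library left out. In brain (5 genes), DESeq2 called 429, limma-voom 2, no filter 102, and the covariate and the joint fit 0, with 1 (without replicate 33) to 372 (without replicate 29) under leave-one-out. In heart (229 genes), DESeq2 called 746, with 36 (without replicate 72) to 247 (without replicate 71) under leave-one-out, and the 1 member called was lost (0) with the covariate, thinned counts and the joint fit, with 0 to 1 under leave-one-out. In APPSWE mice (0 genes), DESeq2 called 22, no filter 8, the fit without the 5 libraries under 17000 detected genes 3 and the fit of only the 2 groups 1, and in littermates (0 genes) DESeq2 4, no filter 2 and the fit without those 5 libraries 1, with 0 to 2 under leave-one-out. For kidney minus heart, DESeq2 called 1 member, G6pdx (adjusted p = 0.0453). Between vehicle kidney and brain, 8 to 9 members were called under leave-one-out. The cause of these shifts was not tested.

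Some signs turned. With the covariate, kidney Keap1 was at 0.03 and brain Nqo1 at -0.14. In APPSWE mice Nfe2l2 was at 0.04 and Slc7a11 at -0.07 with limma-voom, Nfe2l2 at 0.01 and Gclc at 0 with the library of conflicting label as vehicle, Slc7a11 at -0.02 with it as Cmpd60, and Gclm at 0.15 and Txnrd1 at -0.08 without the 5 libraries. Without those, littermate Nfe2l2 was at 0.01, Gclc at 0.01 and Hmox1 at 0.13, and the Gclm interaction at 0.03. That setting was chosen after seeing the data. With 1 library left out, the log2 fold changes that turned ranged in kidney from -0.06 to 0.01 (Keap1) and -0.13 to 0.61 (Slc7a11), in brain from -0.08 to 0.07 (Slc7a11), and in heart from -0.06 to 0 (Keap1), -0.13 to 0.53 (Hmox1) and -0.15 to 0.07 (G6pdx). In APPSWE mice they ranged from -0.18 to 0.08 (Nfe2l2), -0.13 to 0.2 (Gclc), -0.14 to 0.22 (Slc7a11), -0.04 to 0.12 (Txnrd1), -0.1 to 0.04 (Srxn1) and -0.08 to 0.25 (G6pdx), in littermates from -0.01 to 0.13 (Srxn1) and -0.41 to 0.12 (Hmox1), and between vehicle kidney and brain from -0.1 to 0.03 (Srxn1). No paired analysis was possible because the groups compared share no replicate numbers. Slc7a11 in kidney and heart, with at most 23 counts per library, was limited by its low level there.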
